A study of Homo sapiens with 4 samples.

Results

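The genes described here encode the subunits, activators, inhibitor and assembly chaperones of the proteasome. They were taken by symbol from the protein-coding genes of the count table, as every gene whose symbol begins with PSMA, PSMB, PSMC, PSMD, PSME, PSMF or PSMG and a digit. The rule found 49 of 63677 counted genes, of which 47 are proteasome genes and 2 match by symbol only: PSMC3IP, a factor of homologous recombination, and PSME3IP1, whose protein binds the activator PSME3. A further gene of the family, PSMB3, was not analysed here, because its identifier in the annotation had no match in the table. Of the 49 genes, 46 passed the filter on low counts and were tested, among 15116 tested genes in all.

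The proteasome is the protease complex that degrades proteins marked with ubiquitin in the cytosol and nucleus. Its 20S core is a barrel of alpha rings, which gate the entry, and beta rings, which hold the catalytic sites, and its 19S cap joins a base of ATPases, which unfold the substrate, to a lid that removes the ubiquitin chain. Dedicated chaperones assemble core and base, and dividing tumour cells transcribe these genes at a high and coordinated level, with the transcription factor NFE2L1 as the known activator when proteasome capacity falls short.

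The data were RNA-seq read counts of HCT116 cells, a human colorectal cancer line, 48 h after transfection with an antisense oligonucleotide (ASO) complementary to GAA repeats, named anti-GAA, or with a control ASO. The study's methods state a shorter transfection than the labels. Each ASO had 2 libraries, numbered 1 and 2, and there was no untransfected library, so all 4 libraries share the transfection. The study examined RNAs bound by ORC1, a subunit of the origin recognition complex, and used the anti-GAA ASO against RNAs with GAA repeats. The study's methods speak of duplicate experiments, and the labels number the replicates without naming separate cultures, so p-values measure only the spread between these libraries, which may in part be technical.

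GAA runs in the proteasome mRNAs are shown first, since the ASO was made against such repeats. A run is the longest stretch that repeats GAA without a mismatch, in any frame, on the RNA strand, and capitals mark it below. All runs shown are shorter than the ASO whose sequence the study gives, and whether the ASO acts on such runs was not tested. Each window is given from GENCODE 44 on GRCh38, all on the plus strand. The PSMC2 run of 14 nt lay in the 5′ UTR (exon 1, chr7:103328634-103328647) of the longest protein-coding transcript. The PSMD14 run of 12 nt lay in the coding sequence (exon 11 of 12, chr2:161408842-161408853). Those of PSMC1 (11 nt, exon 3 of 11, chr14:90260163-90260173), PSMA4 (10 nt, exon 9 of 9, chr15:78548882-78548891) and PSME1 (9 nt, exon 5 of 10, chr14:24137538-24137546) also lay in coding sequence.
PSMC2: gtgtcaaaAAGAAGAAGAAGAAaaaaacaa
PSMD14: taaggctgtAGAAGAAGAAGAtaagatgac
PSMC1: gtggggaaaAAGAAGAAGAAaacaaaggg
PSMA4: aaaacatgagGAAGAAGAAGccaaagctga
PSME1: caaggatgaaAAGAAGAAGggggaggatg

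In the longest transcript of any kind, 1 of the 46 tested genes (PSMD14) held a run of at least 12 nt, against 2.54% of the 14751 tested genes with a transcript sequence. In the longest protein-coding transcript the number was 2, with PSMC2 added. In the longest transcript, the run was between 6 and 8 nt in 35 of the 46 tested genes. The share of all tested genes in that range was not determined, nor was their share of at least 12 nt in the longest protein-coding transcript. The longest transcripts had a median of 2788.5 nt in the members and 3407 nt in all tested genes, so these counts do not show that proteasome mRNAs differ from others.

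Promoters are shown because NFE2L1 and related factors bind the antioxidant response element, whose core was searched as TGACNNNGC on both strands from 250 bases before to 50 bases after each start site in RefSeq (GRCh38.p14). Of the 49 genes, 43 had a promoter entry, and 12 of these held the core (27.9%), against 13.6% of all 27305 promoters. The share was 5 of 13 in lid and base genes, 3 of 4 in activators and 2 of 3 in the chaperones with an entry. It was 1 of 7 in beta subunits, 1 of 6 in ATPases, 0 of 7 in alpha subunits and 0 of 1 for the inhibitor. A match is a description of the letters and not a bound site. The windows below, with the core in capitals, are examples from 5 of these 12 genes, of the base, lid, activators and chaperones, whose values follow. All 5 had a log2 fold change above 0 with the anti-GAA ASO. Of the 12 genes 10 were above 0, and the others, PSMD1 and PSME4, are not shown. Above 0 were also 23 of the 28 tested members without the core, beside 51.6% of all tested genes. The cores lay at chr17:39980770-39980778 (PSMD3, 37 bases before the start), chr17:67366734-67366742 (PSMD12, minus strand), chr19:39971192-39971200 (PSMC4, shown on the strand opposite to the gene), chr14:24136108-24136116 (PSME1) and chr21:39183626-39183634 (PSMG1, minus strand).
PSMD3: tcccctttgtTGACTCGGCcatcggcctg
PSMD12: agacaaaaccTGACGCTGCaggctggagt
PSMC4: tcctccatagTGACCAAGCcggcctctgt
PSME1: atggcagggcTGACCCCGCctcctccatc
PSMG1: gcccagggcaTGACAGCGCgggcgggcgg

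Total counts were 10538284 and 17894953 in replicates 1 and 2 of the anti-GAA ASO, against 15347298 and 15924742 in those of the control ASO. The proteasome genes took 1.10 to 1.24% of the counts of a library. Of 8 epithelial markers, 6 were present, such as EPCAM at 628 to 740 CPM (read counts scaled to a common library size by TMM), while VIL1 had 0 to 2 counts and LGALS4 0.101 to 1.71 CPM. Of 4 markers of other cells, PTPRC, PECAM1 and ALB had at most 13 counts in a library, and COL1A1 had 10.1 to 14.6 CPM. Another protein-coding gene overlaps 6 members on the same strand (PSMA1, PSMA2, PSMA6, PSMB10, PSMC2 and PSMD9) and 15 on the opposite strand, among them PSMB8, PSMD1 and PSME1. Reads from an overlap on the same strand cannot be told apart by strand. Those from an overlap on the opposite strand cannot be told apart where strand was not used. In bulk RNA, fewer cells of a type and less RNA per cell cannot be told apart.

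With the anti-GAA ASO, proteasome mRNAs were close to their control level, and most lay slightly above it. At an adjusted p under 0.05, the quasi-likelihood test of edgeR made no call among the members, with 0 of 46 called lower and 0 called higher, beside 0% of the 15116 tested genes in either direction. The adjusted p from edgeR was 0.996 or 0.997 for every tested member. At an unadjusted p under 0.05, edgeR placed 1 member lower (PSMB8), beside 3.46% of all tested genes, and 0 higher, beside 1.02%. DESeq2 called 0 members in either direction, beside 0.0331% of tested genes lower and 0% higher, and had 0 members at an unadjusted p under 0.05, beside 2.1% lower and 0.662% higher. These counts do not show that levels were equal, since the standard error (SE) of edgeR's log2 fold change was between 0.18 and 0.53 for the 41 members averaging 10 CPM or more. That fit has no term for the replicate number, so its SEs include the difference between replicates. With the replicate number as a block, the SE was 0.16 in place of 0.53 for PSMC6, and 0.14 in place of 0.18 for PSME1.

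The log2 fold change (anti-GAA over control) was above 0 in 39 of 46 members (84.8%), beside 51.6% of all tested genes. Its median over the members was 0.16, a 1.12-fold difference, beside 0.013 over all tested genes. The median was 0.19 in the replicate 1 pair and 0.12 in the replicate 2 pair (SD 0.046 over the 2 pairs). In each pair separately, 36 members were higher in replicate 1 (78.3%, beside 49.5% of all genes) and 32 in replicate 2 (69.6%, beside 52.2%). Both pairs were higher in 25 members (54.3%), beside 31.8% of all genes, and both were lower in 3 (6.52%), namely PSMB8, PSMD1 and PSME4, beside 30% of all genes. At the level of single genes the separation was no more frequent than elsewhere: both anti-GAA libraries were above both control libraries in 7 members (15.2%), beside 15.5% of all genes, and below them in 2 (4.35%), beside 16.9%. The differences were also small, with PSMB8, at 7 to 47 counts in a library, as the only member beyond 0.5 on the log2 scale (2.17%), beside 16.3% of all genes. The 2 shares are not at a like level, since the median was 203 CPM in the members and 15.7 CPM in all tested genes. Genes of few reads vary more.

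Where the comparison was limited to genes averaging 10 CPM or more, a restriction chosen after the data were seen, the median log2 fold change was 0.16 in the 41 members and 0.045 in all 8894 genes, and the SD across genes was 0.15 in the members and 0.26 in all genes. The levels were still unlike, with a median of 224 CPM in the 41 members and 40.5 CPM in the 8894 genes, so the SDs are not at a like level. Above 0 were 35 of these 41 members (85.4%), beside 57.6% of the 8894 genes. Over all 46 tested members, the count above 0 and the median depended on single libraries. Without anti-GAA replicate 1, 23 of 46 members were above 0 and the median was 0.0034, and without control replicate 2 the numbers were 29 and 0.053. Without control replicate 1 they were 40 and 0.29, and without anti-GAA replicate 2 they were 39 and 0.30. Over these fits, the share of all tested genes above 0 lay between 47.6% and 52.7%. With scaling to total counts in place of TMM, 35 members were above 0 with a median of 0.067, while the median of all tested genes moved to −0.081 and 39.0% of them were above 0.

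**Figure D1:**
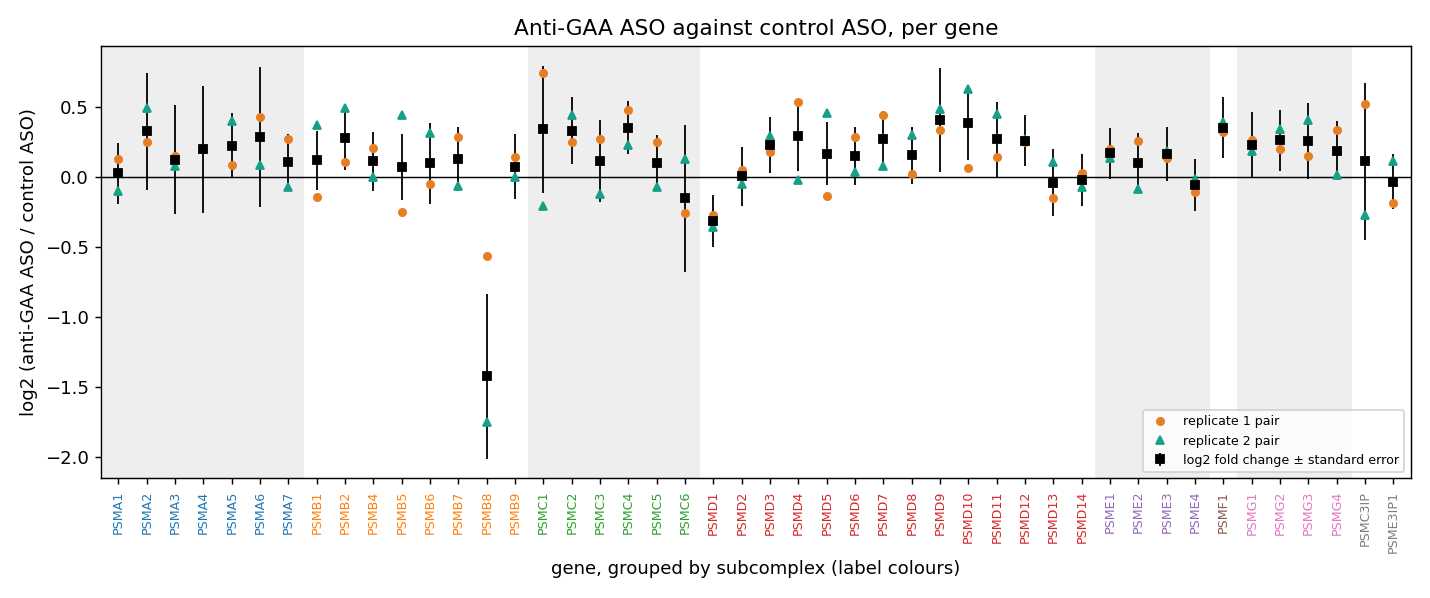
The log2 ratio of anti-GAA over control ASO is plotted for the 46 tested members (grouped by subcomplex, colours of the labels), as edgeR's log2 fold change with its standard error (squares) and as the log2 CPM difference of the replicate 1 pair (circles) and the replicate 2 pair (triangles). Squares lie above 0 for 39 members, PSMB8 stands alone at −1.43, and PSMD1 has both pairs and the whole error bar below 0.

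The 7 tested alpha subunits, which form the outer rings and the gate of the core, all had a log2 fold change above 0, between 0.029 (PSMA1) and 0.33 (PSMA2), with a median of 0.20. Their summed level was 2183 and 1669 CPM in the anti-GAA libraries, against 1902 and 1628 CPM in the control libraries, so that both replicate 1 libraries were above both replicate 2 libraries. PSMA7, the alpha subunit with the most reads, had 1110 and 909 CPM in the anti-GAA libraries, against 920 and 953 CPM in the control libraries. Its groups overlapped, and the log2 fold change was 0.11 (SE 0.20). PSMA3 had 354 and 184 CPM in the anti-GAA libraries, against 318 and 174 CPM in the control libraries. PSMA2 had 33.9 and 19.1 against 28.6 and 13.5 CPM, and PSMA4 had 34.2 and 16.1 against 29.6 and 14.0 CPM. In these 3 genes the replicate number separated the libraries and the ASO did not.

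PSMA6 had only 17 and 18 counts in the anti-GAA libraries and 19 and 16 in the control libraries, 70 in all. Genes annotated as PSMA6 pseudogenes held 5337 counts in the same libraries, and the division of reads between copies of near-identical sequence was not tested. The testis-specific alpha subunit PSMA8 had 0 counts in every library, where a count of 0 allows up to 3, and was not tested. Without anti-GAA replicate 1 the median of the alpha subunits was −0.13, without control replicate 2 it was −0.051, and without anti-GAA replicate 2 or control replicate 1 it was 0.52 and 0.49, so the direction of this group changed with the library left out.

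The beta subunits line the catalytic chamber, and 7 of the 8 tested had a log2 fold change above 0, with a median of 0.11. Summed levels were 4018 and 3600 CPM in the anti-GAA libraries, against 3816 and 3146 CPM in the control libraries, which overlapped. Of the 3 constitutive catalytic subunits, PSMB5, the chymotrypsin-like protease and the target of clinical proteasome inhibitors, had 212 and 237 CPM in the anti-GAA libraries, against 252 and 174 CPM in the control libraries. PSMB6, the caspase-like subunit, had 537 and 413 CPM against 555 and 333 CPM. PSMB7, the trypsin-like subunit, had 1183 and 845 CPM against 968 and 883 CPM. The groups overlapped in all 3 subunits, the pairs had opposite signs, and the log2 fold changes lay between 0.075 and 0.13 with standard errors of 0.23 to 0.29. The noncatalytic subunits PSMB1, PSMB2 and PSMB4 had log2 fold changes of 0.12, 0.28 and 0.11. Without anti-GAA replicate 1 the median of the beta subunits was −0.044.

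The immunoproteasome subunits replace the constitutive catalytic ones after interferon signalling. Of these, PSMB8 and PSMB10 had few reads, while PSMB9 averaged 14.8 CPM, beside a median of 15.7 CPM over all tested genes. PSMB8, which takes the place of PSMB5, lies at chr6:32840717-32844679 on the minus strand (GRCh38) and had 7 and 13 counts in the anti-GAA libraries, against 17 and 47 in the control libraries. As normalised values these were 0.707 and 0.731 CPM against 1.11 and 2.77 CPM, with both anti-GAA libraries below both control libraries. The log2 fold change was −1.43 (SE 0.59, unadjusted p = 0.0466 and adjusted p = 0.996 from edgeR), the largest in absolute value among the members. Over the alternatives that kept all 4 libraries the adjusted p of PSMB8 lay between 0.128 and 1.00, and without control replicate 2, the library with 47 counts, the log2 fold change was −0.61 (unadjusted p = 0.494 from edgeR). Without either anti-GAA library the unadjusted p from edgeR was 0.0925 and 0.0918, and without control replicate 1 it was 0.00861. PSMB9, which takes the place of PSMB6, had 16.3 and 14.1 CPM against 14.7 and 14.1 CPM, a log2 fold change of 0.076 (SE 0.23). PSMB10, the remaining one, had 6 and 5 against 7 and 7 counts and was not tested, and neither was the thymic subunit PSMB11 with 0 and 2 against 1 and 1 counts. PSMB8 and PSMB9 are neighbours in the major histocompatibility complex and are induced together by interferon, and here the log2 fold changes were −1.43 and 0.076.

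The ATPases form the ring at the bottom of the cap that unfolds substrates and opens the alpha gate. Of 6, all but PSMC6 had a log2 fold change above 0, with a median of 0.22, and their summed level was 1633 and 1216 CPM in the anti-GAA libraries, against 1364 and 1159 CPM in the control libraries. PSMC4 (chr19:39971165-39981764, plus strand, GRCh38), whose promoter window is shown above, had 167 and 153 CPM in the anti-GAA libraries, against 120 and 131 CPM in the control libraries. It was the only ATPase whose groups did not overlap, at a log2 fold change of 0.35 (SE 0.19, unadjusted p = 0.104 and adjusted p = 0.996 from edgeR). With the replicate number as a block, PSMC4 had an SE of 0.14 (unadjusted p = 0.0236 and adjusted p = 0.223 from edgeR). PSMC2, with the 14 nt GAA run in its 5′ UTR, had 369 and 300 CPM against 311 and 221 CPM, higher in both pairs and overlapping, at a log2 fold change of 0.33 (SE 0.24). With the same block, PSMC2 was at 0.35 (SE 0.14, unadjusted p = 0.0293 and adjusted p = 0.242 from edgeR). PSMC6 had 57.7 and 26.9 CPM in the anti-GAA libraries, against 69.1 and 24.6 CPM in the control libraries. Its replicate 1 libraries were both far above its replicate 2 libraries, the pairs had opposite signs, and the log2 fold change was −0.15 (SE 0.53). PSMC1 had 160 counts in all, beside 292 counts on genes annotated as its pseudogenes. Without anti-GAA replicate 1 the median of the ATPases was −0.14, without control replicate 2 it was 0.12, and in the other 2 cases it was 0.34 and 0.44.

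The lid holds the deubiquitinase PSMD14 and its scaffold, and the base holds the large scaffold proteins PSMD1 and PSMD2 and the ubiquitin receptor PSMD4. Together with the base assembly chaperones these are 14 genes, of which 11 had a log2 fold change above 0, with a median of 0.20 over the set. That median was 0.076 without control replicate 2, 0.12 without anti-GAA replicate 1 and 0.29 without control replicate 1. Their summed level was 3931 and 3445 CPM in the anti-GAA libraries, against 3588 and 3245 CPM in the control libraries. PSMD1 (chr2:231056845-231173116, plus strand, GRCh38), a scaffold of the base, had 257 and 270 CPM in the anti-GAA libraries, against 311 and 345 CPM in the control libraries. Both anti-GAA libraries were below both control libraries, at a log2 fold change of −0.32 (SE 0.19, unadjusted p = 0.136 and adjusted p = 0.996 from edgeR). With the replicate number as a block, PSMD1 was at −0.31 (SE 0.14, unadjusted p = 0.0417 and adjusted p = 0.280 from edgeR). PSMD2, its partner in the base, had 549 and 437 CPM against 529 and 454 CPM, a log2 fold change of 0.0057 (SE 0.21), whose sign turned with scaling to total counts (−0.090) and with the other filters on low counts. PSMD4 had 616 and 398 CPM against 424 and 404 CPM, with anti-GAA replicate 1 above the other 3 libraries.

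In the lid proper, the 8 subunits had a median log2 fold change of 0.19, and 3 of them (PSMD3, PSMD7 and PSMD12) had both anti-GAA libraries above both control libraries, beside 15.5% of all tested genes. PSMD12 had 275 and 268 CPM in the anti-GAA libraries, against 232 and 222 CPM in the control libraries. Its pairs were nearly equal, at 0.25 and 0.27, and the log2 fold change was 0.26 (SE 0.18, unadjusted p = 0.198 from edgeR). PSMD3 had 176 and 156 CPM against 155 and 127 CPM, and PSMD7, which pairs with the deubiquitinase, had 274 and 216 CPM against 202 and 205 CPM. PSMD14, the deubiquitinase, which carries the 12 nt GAA run, had 383 and 353 CPM against 375 and 371 CPM. All 4 libraries of PSMD14 lay close together, at a log2 fold change of −0.021 (SE 0.18), which was 0.16 with the correction for transcript length and GC content. PSMD13 had 269 and 223 against 298 and 207 CPM, a log2 fold change of −0.039.

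The base is assembled with the help of PSMD5, PSMD9 and PSMD10. In the fit without a replicate block, PSMD9 and PSMD10 had the largest positive log2 fold changes of all tested members, each within 1.5 times its SE. With the replicate number as a block, PSMD10 was at 0.36 (SE 0.16, unadjusted p = 0.0409 and adjusted p = 0.277 from edgeR). In that fit PSMF1 (0.0186), PSMC4 (0.0236), PSMC2 (0.0293) and PSMA2 (0.0400) had smaller unadjusted p from edgeR and were also higher. In all, 5 members (10.9%) were higher at an unadjusted p under 0.05, beside 6.86% of all tested genes. PSMD10, also known as gankyrin, had 58.6 and 94.9 CPM in the anti-GAA libraries, against 55.9 and 61.4 CPM in the control libraries. Only anti-GAA replicate 2 stood above the others, and the log2 fold change of 0.39 (SE 0.27) was 0.0024 without that library. PSMD9 had 5.15 and 3.93 CPM against 4.04 and 2.77 CPM, a log2 fold change of 0.41 (SE 0.37), and PSMD5 had 35.2 and 44.1 CPM against 38.5 and 32.1 CPM, a log2 fold change of 0.17 (SE 0.22).

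The activators replace the 19S cap on a part of the 20S cores. PSME1, a subunit of the interferon-inducible activator, had 281 and 272 CPM in the anti-GAA libraries, against 244 and 248 CPM in the control libraries. Its groups did not overlap and each lay within a narrow range, at a log2 fold change of 0.17 (SE 0.18). PSME2, its partner, had 140 and 105 CPM against 117 and 111 CPM, overlapping, at a log2 fold change of 0.10 (SE 0.22). PSME2 pseudogenes held 1999 counts beside 6924 on PSME2 itself. PSME3, the nuclear activator, had 153 and 139 CPM against 139 and 122 CPM, with both anti-GAA libraries just above both control libraries (log2 fold change 0.16, SE 0.19). PSME4, a large nuclear activator known from spermatogenesis and DNA repair, had 107 and 116 CPM against 115 and 117 CPM, a log2 fold change of −0.057 (SE 0.19).

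PSMF1 encodes a regulator of the core, first described as an inhibitor. It had 169 and 139 CPM in the anti-GAA libraries, against 135 and 105 CPM in the control libraries. The lower anti-GAA library lay just above the higher control library, and the log2 fold change was 0.35 (SE 0.22, unadjusted p = 0.154 and adjusted p = 0.996 from edgeR), with 0.32 and 0.40 in the pairs. With the replicate number as a block it was 0.36 (SE 0.14, unadjusted p = 0.0186 and adjusted p = 0.198 from edgeR).

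The 4 assembly chaperones of the 20S core act as 2 heterodimers, PSMG1 with PSMG2 and PSMG3 with PSMG4, that guide the alpha ring. All 4 were higher with the anti-GAA ASO in both pairs, and their log2 fold changes lay between 0.19 and 0.26, with a median of 0.24. Their SEs lay between 0.21 and 0.27. The SD across the genes was 0.035, but all 4 were measured in the same libraries, so it does not give the precision of the values. PSMG1 had 169 and 126 CPM in the anti-GAA libraries, against 141 and 111 CPM in the control libraries. PSMG2 had 155 and 133 CPM against 135 and 104 CPM, PSMG3 had 92.7 and 71.5 CPM against 83.3 and 53.8 CPM, and PSMG4 had 107 and 82.7 CPM against 84.7 and 82.0 CPM. In each of them replicate 1 was above replicate 2 under both ASOs, and the groups overlapped. Without anti-GAA replicate 1 their median was 0.039, without control replicate 2 it was 0.087, and in the other 2 cases it was 0.40 and 0.43.

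The 2 genes that share only the symbol had log2 fold changes of 0.11 (PSMC3IP, SE 0.56, at most 12 counts in a library) and −0.032 (PSME3IP1, SE 0.19). Without them, 38 of 44 genes were above 0, with a median of 0.17.

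The replicates differed more than the ASOs in most members. The absolute log2 CPM difference between replicates 1 and 2, averaged over both ASOs, had a median of 0.29 over the 46 members, and that between the ASOs, averaged over both replicates, a median of 0.17. The replicate difference was the larger one in 33 members (71.7%), beside 59.2% of all tested genes. Its direction was mostly the same: the median of replicate 1 minus replicate 2 was 0.25 in the members and −0.015 in all tested genes. The alpha subunits had the largest median of the groups (0.52), followed by the ATPases (0.47), the chaperones (0.34), the single inhibitor gene (0.32), the beta subunits (0.22), the lid and base genes (0.17) and the activators (0.086). The largest single values were those of PSMC6 (1.29), PSMA4 (1.07), PSMA2 (0.95) and PSMA3 (0.90), while PSMB8 (−0.63) and PSMD10 (−0.41) went the other way.

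**Figure D2:**
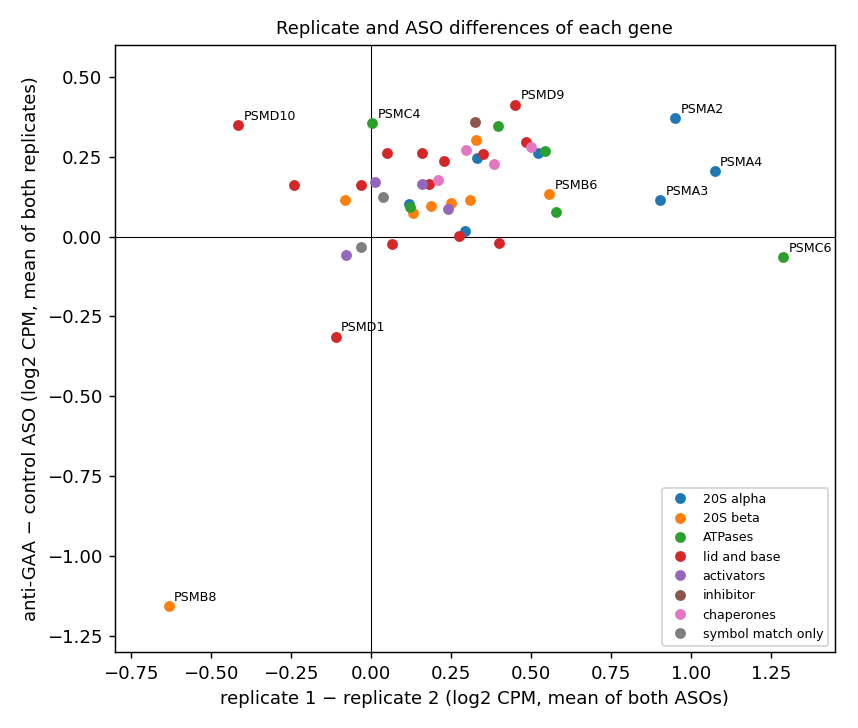
Each tested member is a point, with replicate 1 minus replicate 2 on the horizontal axis (log2 CPM, mean of both ASOs) and anti-GAA minus control ASO on the vertical axis (log2 CPM, mean of both replicates), coloured by subcomplex and drawn to one scale. PSMC6, PSMA4, PSMA2 and PSMA3 lie far to the right at 0.90 to 1.29 with ASO differences of −0.065 to 0.37, and PSMB8 lies at the lower left.

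**Figure D3:**
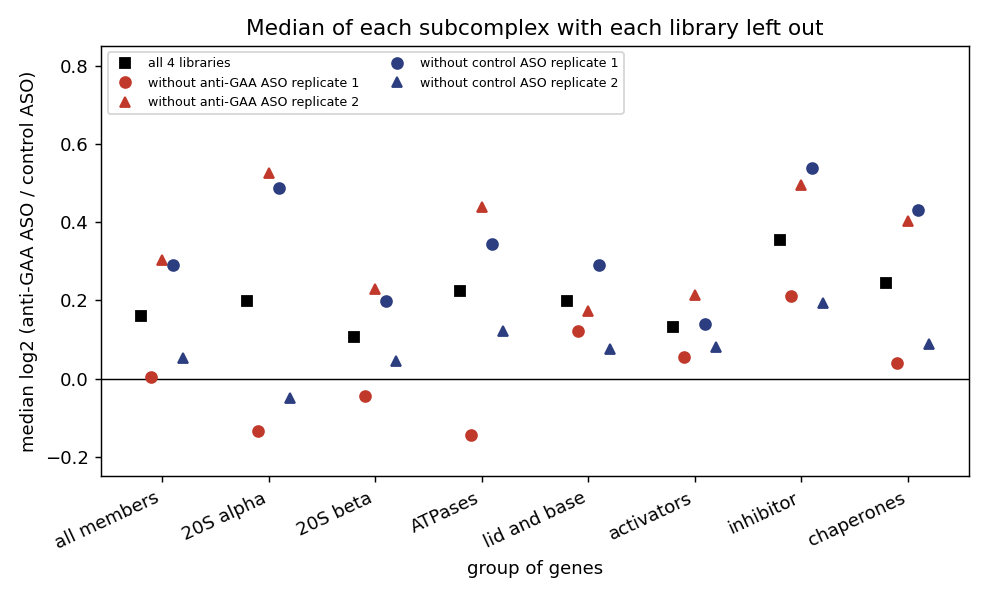
The median log2 fold change of all 46 tested members and of each group is plotted with all 4 libraries (squares) and with 1 library left out (circles for replicate 1, triangles for replicate 2, red for the anti-GAA ASO, blue for the control ASO). The median over all members runs from 0.0034 to 0.30, that of the alpha subunits from −0.13 to 0.52, and that of the single inhibitor gene from 0.19 to 0.54.

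Levels between genes were compared per length, as CPM per kilobase of the longest transcript (mean of 4 libraries). PSMB7 (985) and PSMA7 (951) stood highest, followed by PSMB6 (527), PSMB1 (491), PSMD4 (345) and PSMB4 (342). The median over the tested members was 61.6 CPM per kilobase, and 77.3 per kilobase of the longest protein-coding transcript. With that second length PSMB1 reached 1069, PSMA7 1011 and PSMB4 771, so the order at the top depended on the transcript chosen. Several subunits of the same core ring were far lower in the same libraries: PSMA4 had 5.37, PSMA2 had 4.43 (16.6 with the protein-coding transcript) and PSMA6 had 0.26 (1.20). Among the ATPases PSMC3 had 233 and PSMC1 had 0.65 CPM per kilobase. Of the immunoproteasome subunits, PSMB9 had 5.52 and PSMB8 had 0.56.

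**Figure D4:**
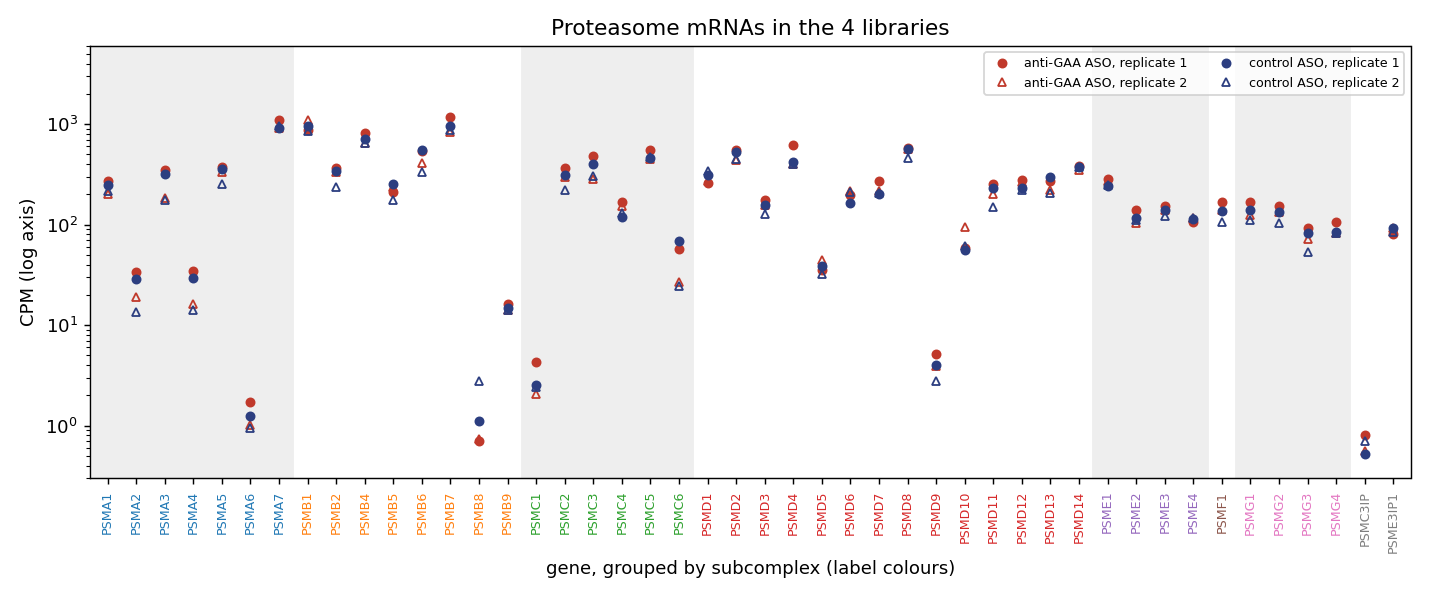
CPM (logarithmic axis) of the 46 tested members in each library, grouped by subcomplex, with red for the anti-GAA ASO, blue for the control ASO, filled circles for replicate 1 and open triangles for replicate 2. Levels span from about 1 CPM (PSMA6, PSMB8, PSMC3IP) to 1183 CPM (PSMB7 with the anti-GAA ASO), and the 4 symbols of most genes lie close together beside this range.

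Members were also compared by their GAA runs and promoters. By the longest transcript, the 35 tested genes with runs of 6 to 8 nt had a median log2 fold change of 0.13 and the 9 with runs of 9 to 11 nt a median of 0.20. By the longest protein-coding transcript, the medians were 0.16 for 6 to 8 nt (34 genes), 0.18 for 9 to 11 nt (8 genes) and 0.16 for the 2 genes of at least 12 nt. No class had a median below 0 except the single gene PSMD14 (−0.021). The 12 tested genes with the promoter core had a median of 0.20, with 10 above 0, and the 28 without it a median of 0.15, with 23 above 0. PSMD1 and PSME4, which were lower in both pairs, held the core as well.

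The other genes of the pathway were 34 partners, associated factors, transcription regulators, shuttles and ubiquitin genes, all of which were tested. In edgeR's test none was called at the adjusted threshold of 0.05, in either direction, and at an unadjusted p under 0.05 there were 0 lower and 1 higher (2.94%, beside 1.02% of all tested genes). That gene was PAAF1, a factor that binds the ATPases, with 30.9 and 27.9 CPM in the anti-GAA libraries, against 15.9 and 13.9 CPM in the control libraries, at a log2 fold change of 0.98 (SE 0.22, unadjusted p = 0.00299 and adjusted p = 0.686 from edgeR). With the replicate number as a block, PAAF1 was called higher (adjusted p = 0.00911 from edgeR and 0.0343 from DESeq2). The list, PAAF1 included, was drawn up with earlier results of these data known. Neither its shares nor the call of PAAF1 is therefore independent evidence of a change in the pathway. Of the 34 genes, 25 had a log2 fold change above 0 (73.5%, beside 51.6%), with a median of 0.082, which was −0.011 with scaling to total counts. NFE2L1 had 106 and 101 CPM in the anti-GAA libraries, against 75.1 and 79.3 CPM in the control libraries. Both anti-GAA libraries were above both control libraries, at a log2 fold change of 0.42 (SE 0.19, unadjusted p = 0.0604 and adjusted p = 0.996 from edgeR). Groups that did not overlap were found in 9 genes of the list with higher values (26.5%, beside 15.5%) and in 3 with lower values (8.82%, beside 16.9%).

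Among the partners of the complex, the lid protein SEM1 had 277 and 269 CPM in the anti-GAA libraries, against 282 and 236 CPM in the control libraries (log2 fold change 0.077). The ubiquitin receptor ADRM1 had 218 and 164 CPM against 157 and 152 CPM, without overlap (log2 fold change 0.30, SE 0.21). POMP, the maturation factor of the 20S core, had 449 and 339 CPM against 390 and 344 CPM (log2 fold change 0.10). The groups of SEM1 and POMP overlapped. UBB, which supplies free ubiquitin under stress, had 152 and 246 CPM against 181 and 191 CPM (log2 fold change 0.095, SE 0.26), and its groups overlapped as well.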

How the data were processed

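RNA from HCT116 cells with the anti-GAA or the control ASO (2 libraries each) was sequenced by the authors, who used Trimmomatic for trimming and STAR for alignment to hg19 (GRCh37, as the submitters' processing notes also name), dropped GL contigs and counted reads per Ensembl gene with featureCounts. The deposited values are raw counts per gene, without normalization, and 0 columns were left unused. Whether counting used strand, and how reads with several matches were treated, is not given in the sources used here, and overlapping or antisense genes and near-identical copies cannot be told apart. The kit is one for stranded mRNA by the methods and one for total RNA by the labels.

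Counts of the 15116 genes kept by filterByExpr were TMM-scaled. The quasi-likelihood F-test of edgeR had the ASO as its single term, with Benjamini-Hochberg adjustment over all tested genes and a threshold of 0.05 (R 4.3.3, edgeR 4.0.16, limma 3.58.1). Values per pair are log2 CPM differences (prior count 2) between libraries of one replicate number. The standard error is the log2 fold change divided by the square root of F. Total counts of 10538284 to 17894953 limit genes of a few counts. No interval was printed, and counts cover counting error only.

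Symbols, positions and transcripts came from GENCODE 44 on GRCh38, joined by Ensembl identifier (52181 of 63677 genes matched), and promoters from RefSeq. No position was carried over from hg19. Motifs and runs were searched in Python 3.11.15 with pandas 2.3.3.

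The members, the pathway list (which adds PAAF1 and other partners) and the tests were chosen with earlier results of these data known. Every member may be named. Of the pathway list, POMP, ADRM1, SEM1, PAAF1, NFE2L1 and UBB may be named, as well as genes at an unadjusted p under 0.05 or called in an alternative. The values of 1 further gene that this rule allows are not reported here. Alternatives were DESeq2 1.42.0, size factors from DESeq2 used in edgeR, total-count scaling, omission of the filter, a minimum mean of 1 CPM, the replicate number as a block, offsets for length and GC content (mgcv 1.9.3), combinations of these, other transcript models and leaving out each library. A minimum of 10 CPM was added after the data were seen.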

Additional observations from a re-analysis of the deposited data

How the results depend on the processing

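The count of 0 members called in either direction held under every alternative run: DESeq2, other scalings, other filters, the replicate block, the correction for transcript length and GC content, their combinations and each library left out. With all 4 libraries, the number of tested members above 0 lay between 35 and 40, over sets of genes that differ with the filter and not always the same genes. The share of all tested genes above 0 lay between 39.0% and 57.6% in the same fits.

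DESeq2 called 5 genes of the whole table lower. Without a filter on low counts edgeR called 111 lower and 5 higher, and the sign of PSMD2 turned to −0.0073 (−0.0026 with the 1 CPM filter). Scaling to total counts gave median log2 fold changes of 0.067 for all members, 0.11 for alpha subunits, 0.012 for beta subunits, 0.11 for lid and base genes, 0.035 for activators, 0.26 for the inhibitor, 0.15 for chaperones and −0.011 for the pathway list, and turned the sign of PSMA1 (−0.069), PSMB5 (−0.0092), PSMB9 (−0.020), PSMD2 (−0.090) and SEM1 (−0.014). The correction for length and GC content gave 0.43 for the inhibitor and 0.12 for the pathway list and turned PSMA1 (−0.019), PSMD14 (0.16) and PSME4 (0.029).

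Replicates of the 2 ASOs share their numbers in the labels, and libraries of one number also share the number in their titles, but nothing says what it stands for. Deviations from the group means correlated between libraries of one number (r = 0.564 across genes, which are not independent replicates). With the replicate block, edgeR called 207 genes lower and 51 higher and 1 pathway gene, PAAF1 (0.98), with 0 members called and a smallest adjusted p of 0.136. At an unadjusted p under 0.05 the replicate block put 2 members lower (4.35%, beside 9.7% of all genes) and 5 higher (10.9%, beside 6.86%). The lower ones were PSMB8 and PSMD1, and the higher ones were PSMA2, PSMC2, PSMC4, PSMD10 and PSMF1. The replicate block with the length and GC correction gave 196 lower, 104 higher, 1 pathway gene (PAAF1, 1.00), 0.44 for the inhibitor, 0.12 for the pathway list, −0.033 for PSMA1, 0.16 for PSMD14 and 0.030 for PSME4. DESeq2 with the replicate block gave 45 lower, 13 higher and 1 pathway gene (PAAF1, 0.99). The cause of these shifts was not tested.

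Leaving out 1 library gave 0 to 16 genes called lower and 0 to 3 higher over all genes, 23 to 40 members above 0, and medians of 0.0034 to 0.30 for the members, −0.13 to 0.52 for alpha subunits, −0.044 to 0.23 for beta subunits, −0.14 to 0.44 for ATPases, 0.076 to 0.29 for lid and base genes, 0.056 to 0.21 for activators, 0.19 to 0.54 for the inhibitor, 0.039 to 0.43 for chaperones and 0.054 to 0.21 for the pathway list. Without 1 library the lone library of its ASO was assumed to vary like the others. Single genes whose sign turned had these ranges of the log2 fold change: POMP −0.11 to 0.29, PSMA1 −0.18 to 0.22, PSMA2 −0.13 to 0.96, PSMA3 −0.41 to 0.62, PSMA4 −0.43 to 0.83, PSMA6 −0.098 to 0.66, PSMA7 −0.036 to 0.25, PSMB1 −0.056 to 0.29, PSMB4 −0.067 to 0.28, PSMB5 −0.16 to 0.36, PSMB6 −0.22 to 0.51, PSMB7 −0.12 to 0.36, PSMB9 −0.020 to 0.18, PSMC1 −0.25 to 0.81, PSMC3 −0.32 to 0.46, PSMC3IP −0.12 to 0.39, PSMC5 −0.040 to 0.24, PSMC6 −0.79 to 0.77, PSMD11 −0.0067 to 0.62, PSMD13 −0.27 to 0.24, PSMD14 −0.073 to 0.040, PSMD2 −0.16 to 0.16, PSMD4 −0.049 to 0.58, PSMD5 −0.0025 to 0.33, PSMD6 −0.028 to 0.35, PSME2 −0.11 to 0.30, PSME3IP1 −0.12 to 0.064, PSME4 −0.12 to 0.0098, PSMG3 −0.014 to 0.60, PSMG4 −0.0029 to 0.37, SEM1 −0.037 to 0.20, UBB −0.29 to 0.41 A GAA run of at least 12 nt was found in 1 member by the longest transcript and in 2 by the longest protein-coding one.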

Other observations

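Some members had few reads for subunits of a complex built in fixed proportions. PSMA6 had 70 counts over the 4 libraries, PSMC1 160 and PSMA2 1342, beside 14106 and 16164 counts on PSMA7 in the control libraries. PSMA4 had 339 and 287 counts with the anti-GAA ASO and 454 and 238 with the control ASO. Genes annotated as pseudogenes of a member made up 42 entries of the table, for 16 members, and 26 of these entries had counts. Those of PSMA6 held 898 and 1707 counts with the anti-GAA ASO and 1320 and 1412 with the control ASO, 5337 in all. PSMC1 pseudogenes held 292 counts and PSMA2 pseudogenes 309, while PSMA4 had no entry of this kind. PSMA2 and PSMA6 also overlap another protein-coding gene on the same strand, and the part of that overlap was not tested. How reads that match several places were counted is not given in the sources used here, and the part of that treatment in these values was not tested.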
